A study of Mus musculus with 36 samples.

Results

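The genes described here encode the conjugating enzymes of the liver: UDP-glucuronosyltransferases (Ugt), glutathione S-transferases (Gst) and sulfotransferases (Sult). Members were all genes whose symbol started with Ugt and the family numbers 1 to 3, with Gst and a class letter (a, k, m, o, p, s, t or z), or with Sult and a digit, apart from Gstm3, Sult1e1, Sult2a3, Sult3a1 and Sult3a2. Each gene was read from the array row that carried its symbol alone. The rule gave 40 of the 19664 genes measured, of which 10 were Ugt, 18 Gst and 12 Sult genes. Of 64 protein-coding genes with such symbols in RefSeq, 19 had no row of their own with values, among them all genes of the Ugt1a locus, Gsta1, Gsta2 and Gstp2, and those are not analysed here as single genes.

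The study asked how dietary fat and cholesterol act on liver gene expression in male and female mice with a liver-specific knockout of Cyp51, the lanosterol demethylase of cholesterol synthesis. RNA from 36 livers was hybridised to Affymetrix Mouse Gene 1.0 ST arrays, 1 liver per array. The mice had the strain background 129/Pas (10%) × C57BL/6J (90%) and were knockouts (LKO) or their control littermates (LWT). From 3 weeks of age they were fed for 16 weeks, and the livers were taken after a 5 h fast. One diet was a standard chow, low in fat and without cholesterol (LFnC). Another was rich in fat without cholesterol (HFnC), and the last was rich in fat with 1.25% cholesterol by weight (HFC). Each combination of diet, sex and genotype had 3 mice, so there were 12 groups, drawn from 136 mice that were fed in all. The chow came from another supplier than both fat-rich diets, so HFnC against LFnC compares whole feeds and not fat alone. The labels do not name the promoter that drives the Cre recombinase or the alleles of the LWT littermates.

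Values are log2 array intensities, and a difference is given as a log2 change, so 1 means a doubling. The array medians lay between 7.45 and 7.59. Cyp51 read 8.44 to 9.38 in LKO and 9.68 to 10.54 in LWT mice on LFnC, and it was lower in LKO without overlap on both other diets. Whether its probes lie in the deleted part is not known here. Xist, Kdm5d and the labelled sex matched on every array. The 9 hepatocyte markers measured, Alb and Apoa1 among them, read between 12.30 and 14.29 on all arrays. A gene was called when its Benjamini-Hochberg adjusted p over all 19664 genes, in 1 limma fit to all 36 arrays, was under 0.05. The labels number the mice of a group 1 to 3 and give the same number as batch. In whole liver RNA, fewer cells of a type and less RNA per cell cannot be told apart.

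Conjugation makes fat-soluble molecules such as bilirubin, steroids, bile acids and drugs soluble in water, so that they can leave in bile or urine. Ugt enzymes sit in the endoplasmic reticulum and transfer a sugar, mostly glucuronic acid from UDP-glucuronic acid, while Gst enzymes couple reactive molecules to glutathione and Sult enzymes add sulfate from the donor PAPS. In mouse liver several of these genes differ between the sexes, and the nuclear receptors CAR and PXR and the oxidative stress factor NRF2 are known to induce some of them.

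Most members were well measured in liver. On at least 3 arrays, 32 of the 40 members lay above the array median. Sult2a8 did so on 35 arrays, Sult5a1 on 25, and the rest of those 32 on all 36. The other 8, Gsto2, Gstt4, Sult1c1, Sult2a6, Sult2b1, Sult4a1, Sult6b1 and Sult6b2, stayed below it on every array. The members differed widely in how far they varied. Ugt2b34 lay between 12.76 and 13.14 on all 36 arrays, whereas Sult2a8 ran from 6.25 to 12.80. Sult6b1 stayed between 4.19 and 4.50. The widest spread of group means after Sult2a8 was in Gstt3, from 9.93 in HFC males of LWT to 12.04 in LFnC females of LWT, and in Ugt3a1, from 10.17 in LFnC females of LKO to 12.18 in HFC males of LKO.

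**Figure D1:**
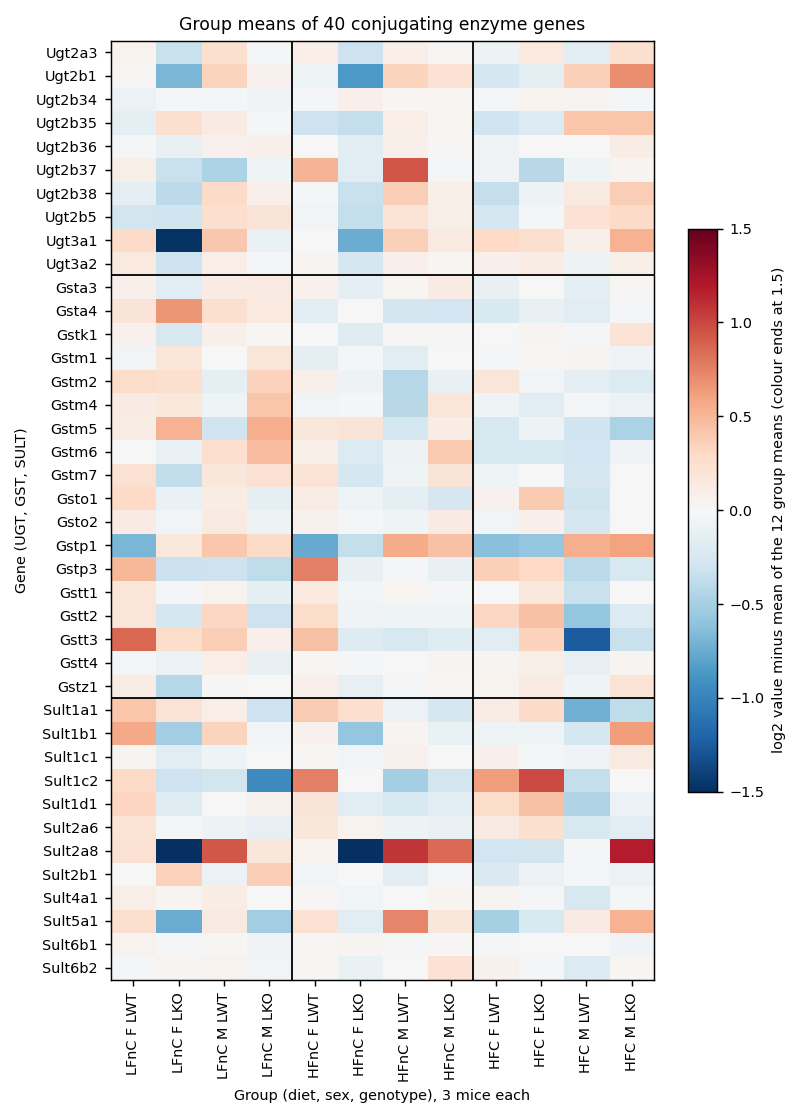
Mean log2 value of each of the 40 members in each of the 12 groups (3 mice each), shown as the difference from the mean of the 12 group means, with red above and blue below it and the colour ending at 1.5. Ugt3a1 is bluest in LFnC females of LKO (mean 10.17), Sult2a8 is blue in LFnC and HFnC females of LKO (means 9.62 and 9.56), and Gstp1 is red in all male groups (means 13.57 to 13.89).

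The genotype was called for many members on the chow diet. There 17 of 40 members were called between LKO and LWT, 4 higher and 13 lower, against 33.4% of all genes called (14.2% higher and 19.3% lower). The lower calls were 3 Ugt, 5 Gst and 5 Sult genes, and the higher ones were Gstm5, Gstp1, Gstm1 and Sult2b1. The median change over the members was -0.16 and that over all genes -0.07, and 10 of 40 members were above 0. In 8 members the 6 LKO and 6 LWT mice did not overlap, while 10.6% of all genes showed such a gap. Every one of the 17 calls had the same sign within each of the 3 batches. That reads again the mice that gave the calls, so it is no separate support. The count rests on the full set of mice: leaving out 1 mouse gave 9 to 15 calls. It was 9 without LFnC female LKO mouse 1, LFnC female LWT mouse 2 or LFnC male LKO mouse 2, and 10 without LFnC female LKO mouse 3, LFnC male LWT mouse 2 or LFnC male LKO mouse 3. Without LFnC female LWT mouse 1 or 3 it was 11. The share of all genes called in these omissions is not given here.

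Among the Ugt genes the change was in both members of the Ugt3a pair and in Ugt2b1. Ugt3a1, a member of the small family known to use sugars other than glucuronic acid, read 11.96, 11.72 and 12.12 in LFnC females of LWT and 9.69, 10.38 and 10.45 in those of LKO. In males it read 11.85, 12.20 and 12.13 in LWT and 11.59, 11.47 and 11.62 in LKO. All 6 LKO mice were below all 6 LWT mice, with the females furthest down. Ugt3a1 fell 2.19-fold over both sexes, a log2 change of -1.13 (SE 0.245, adjusted p = 0.0013, limma), and it stayed called without any 1 of the 12 mice.

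Ugt3a2, its neighbour on chromosome 15, fell from a mean of 13.05 to 12.76 with no overlap, a log2 change of -0.29 (SE 0.11, adjusted p = 0.041), but the call was lost in 10 of 12 omissions of 1 mouse. Ugt2b1, a glucuronosyltransferase of the Ugt2b cluster on chromosome 5, read 12.33, 12.46 and 12.47 in LFnC females of LWT and 11.47, 11.84 and 11.81 in those of LKO. The male groups lay at 12.66 to 12.76 and 12.30 to 12.59, so both sexes were lower in LKO without overlap within the sex. Over both sexes the log2 change of Ugt2b1 was -0.48 (SE 0.18, adjusted p = 0.038), a call lost in 9 of 12 omissions. The other 7 Ugt members were not called. Their changes ran from -0.33 for Ugt2a3 to 0.12 for Ugt2b35.

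**Figure D2:**
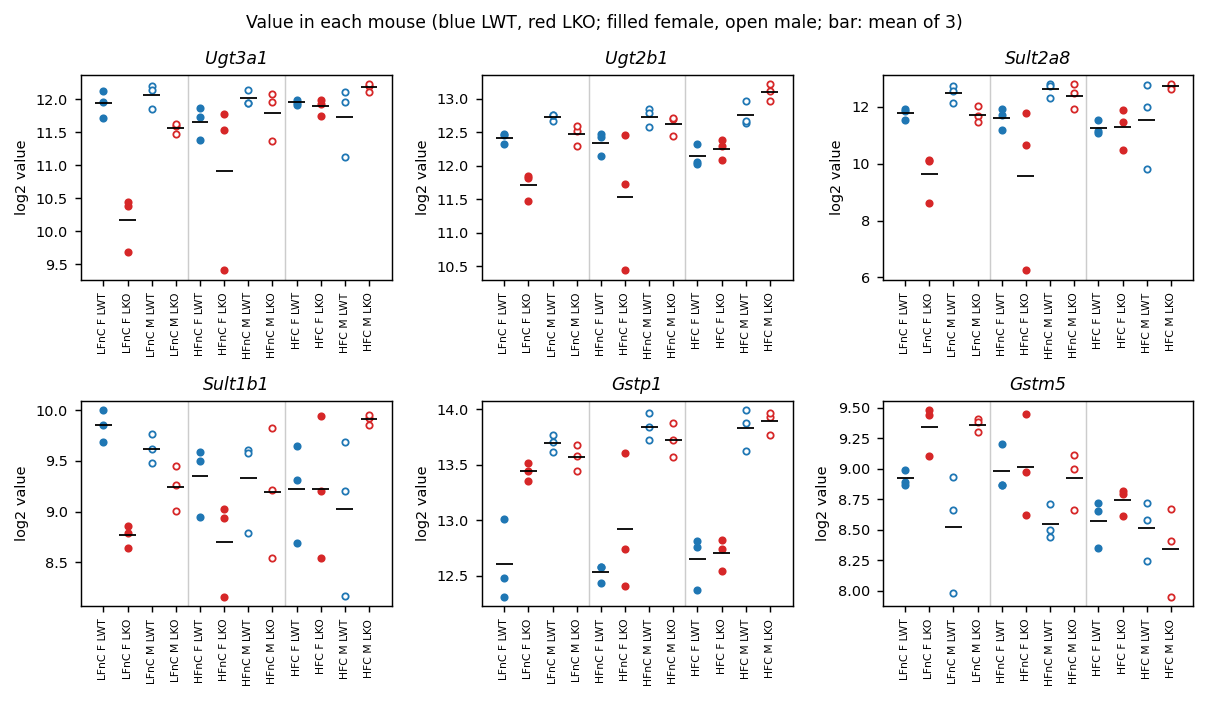
Log2 value of 6 members in each mouse, by diet, sex and genotype, with bars at the mean of 3 mice. LFnC females of LKO lay lowest for Ugt3a1 apart from 1 HFnC female of LKO at 9.41, and Gstp1 read 13.35 to 13.51 in LFnC females of LKO against 12.31 to 13.01 in LFnC females of LWT.

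Of the Sult genes 5 fell on LFnC and 1 rose. Sult2a8, a bile acid sulfotransferase of mouse liver, read 11.84, 11.54 and 11.93 in LFnC females of LWT and 8.63, 10.13 and 10.10 in those of LKO. In males it read 12.12, 12.74 and 12.55 in LWT and 12.01, 11.67 and 11.46 in LKO. The groups did not overlap within either sex, though the lowest LWT female lay below the higher LKO males. Its log2 change was -1.45 (SE 0.555, adjusted p = 0.045), 2.74-fold, and 9 of 12 omissions of 1 mouse ended the call.

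Sult1b1, which sulfates phenols and thyroid hormones, read 9.48 to 10.00 in the 6 LWT mice (median 9.72) and 8.64 to 9.45 in the 6 LKO mice (median 8.93), with no overlap. Its log2 change was -0.73 (SE 0.24, adjusted p = 0.023). Sult1c2 fell by 0.65 (SE 0.20, adjusted p = 0.015), from a mean of 9.21 to 8.56. Its LKO males, at 8.31, 8.11 and 8.29, lay below every LWT mouse, while its LKO females, at 8.74, 8.96 and 8.95, overlapped the LWT males.

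Sult5a1 read 7.69 to 8.61 in LWT (median 8.04) and 6.97 to 7.63 in LKO (median 7.19) with a log2 change of -0.825 (SE 0.32, adjusted p = 0.045). That call was lost in 8 of 12 omissions. Sult1a1, a phenol sulfotransferase of liver, fell by 0.31 (SE 0.10, adjusted p = 0.023). Sult2b1, which sulfates cholesterol, went the other way. It rose by 0.40 (SE 0.095, adjusted p = 0.0026), from 6.67 to 7.21 in LWT to 7.02 to 7.50 in LKO, although it stayed below the array median in all mice. The remaining 6 Sult members were not called on LFnC.

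Gst genes changed in both directions. Gstm5, of the mu class, read 8.87, 8.99 and 8.89 in LFnC females and 8.66, 7.98 and 8.93 in LFnC males of LWT. The LKO mice read 9.48, 9.10 and 9.44 in females and 9.41, 9.38 and 9.30 in males, all above every LWT mouse. Gstm5 rose 1.55-fold, a log2 change of 0.63 (SE 0.14, adjusted p = 0.0020), and was called in all 12 omissions.

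Gstp1, the pi class enzyme known for its higher level in male mouse liver, rose over both sexes by 0.36 (SE 0.13, adjusted p = 0.040), a call lost in 10 of 12 omissions. It read 12.31, 13.01 and 12.48 in LFnC females of LWT and 13.44, 13.35 and 13.51 in those of LKO. The male values were 13.61, 13.77 and 13.70 in LWT and 13.58, 13.44 and 13.68 in LKO. The LKO females thus lay above all LWT females and met the lower end of the male values. In females the log2 change was 0.83 (SE 0.19, adjusted p = 0.0048), 1.78-fold, and in males it was -0.12 (95% interval -0.51 to 0.26). The difference between the sexes on LFnC was 0.96 (SE 0.27, unadjusted p = 0.0012 and adjusted p = 0.25 in the limma fit), so it did not pass over all genes. The Gstp1 row may also read the near-identical Gstp2, which has no row of its own here.

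Other Gst genes fell. Gstt2, of the theta class, read 10.72 to 10.95 in LWT and 10.09 to 10.66 in LKO, with no overlap and a log2 change of -0.52 (SE 0.17, adjusted p = 0.018). Gsto1, an omega class enzyme that reduces dehydroascorbate and arsenic compounds, fell by 0.32 (SE 0.094, adjusted p = 0.011). Gstz1, the maleylacetoacetate isomerase of tyrosine breakdown, fell by 0.28 (SE 0.083, adjusted p = 0.012). In single mice, LFnC females read 12.56, 12.55 and 12.60 in LWT and 12.03, 11.95 and 12.10 in LKO, whereas LFnC males read 12.37, 12.52 and 12.54 against 12.44, 12.43 and 12.50. Gsto2 and Gstk1 fell by 0.19 and 0.18 on the log2 scale. Gstm1 rose by 0.21, a call lost in 7 of 12 omissions of 1 mouse. The 10 other Gst members were not called, with changes from -0.45 for Gstp3 to 0.26 for Gstm4.

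Since Gstm5 had the largest called rise on LFnC, the antioxidant response element core, to which NRF2 binds, was searched for in member promoters. The 250 bases before the RefSeq start (GRCm38.p6) were at hand for 36 members, and the core was spelled TGACNNNGC on either strand. It was found in 2 of the 36, Gstm5 and Gsta3, or 5.6%, against 10.15% of 27025 genes. Both are shown with the core in capitals, Gstm5 from chr3:107895604-107895853 on the plus strand and Gsta3 from chr1:21240335-21240584 on the plus strand.
Gstm5: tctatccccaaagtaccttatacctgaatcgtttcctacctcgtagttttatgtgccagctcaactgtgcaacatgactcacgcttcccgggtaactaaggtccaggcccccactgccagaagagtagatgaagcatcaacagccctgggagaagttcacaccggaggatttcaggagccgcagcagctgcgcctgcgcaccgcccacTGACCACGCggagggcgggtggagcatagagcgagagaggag
Gsta3: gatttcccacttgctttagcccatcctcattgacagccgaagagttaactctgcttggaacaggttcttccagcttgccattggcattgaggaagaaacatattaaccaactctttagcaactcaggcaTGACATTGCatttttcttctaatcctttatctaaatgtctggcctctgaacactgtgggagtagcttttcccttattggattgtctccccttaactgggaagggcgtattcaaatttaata
Gsta3, of the alpha class, read 13.02 in LFnC females of LKO and 13.27 in LFnC females of LWT and was called in none of the 17 comparisons, so of the pair that carry these letters 1 rose and the other did not pass. These motif letters are no evidence of binding.

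Each sex was then read alone on chow. In LFnC females 8 members were called, 1 higher and 7 lower, against 12.8% of all genes (7.53% higher and 5.25% lower). Besides Gstp1, these were Ugt3a1 with -1.77 (SE 0.35), Sult1b1 with -1.08 (SE 0.34), Gstm7 with -0.60 (SE 0.20), Gstz1 with -0.545 (SE 0.12), Sult1d1 with -0.51 (SE 0.16), Ugt3a2 with -0.46 (SE 0.155) and Gstk1 with -0.30 (SE 0.098). In LFnC males 2 members were called, both higher, against 14.2% of all genes (7.54% higher and 6.64% lower): Gstm5 with 0.84 (SE 0.20, adjusted p = 0.0085) and Sult2b1 with 0.46 (SE 0.13, adjusted p = 0.024). No member was called in both sexes. Sult2a8 was at -2.15 in females (95% interval -3.76 to -0.54, adjusted p = 0.069) and at -0.75 in males (95% interval -2.36 to 0.86). In the limma test of the difference between the sexes on LFnC no member was called, nor was any other gene (0% of all genes), and 6 members had an unadjusted p under 0.05. With 3 mice in a group the female calls were fragile. Without LFnC female LWT mouse 1 or 3, or LFnC female LKO mouse 1 or 3, 3 members were called, and without LFnC female LWT mouse 2, 4. Ugt3a1, Gstp1 and Gstz1 stayed called in all 6 omissions. The male count was 1 without LFnC male LWT mouse 1 or 2 or LFnC male LKO mouse 2 or 3. In males the call of Sult2b1 was lost in 5 of 6 omissions. That of Gstm5 was lost in 1, without LFnC male LWT mouse 2. For these omissions, too, no share of all genes is given.

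Genes around the conjugation step moved in both directions on LFnC. Of 13 genes for the supply of sugar, sulfate and glutathione donors, 3 were called higher and 3 lower: Ugdh, which makes UDP-glucuronic acid, rose by 0.90 (SE 0.13) and Papss1, which makes PAPS, by 0.44 (SE 0.12), while Cbs, of the route to cysteine, fell by 0.42 (SE 0.080). Exporters of conjugates were called higher in 5 of 9 cases, with Slc51b at 1.23 (SE 0.25) and Abcc4 at 0.63 (SE 0.21), and lower in 1, Abcc6. Of 12 NRF2 target genes 7 were called higher and none lower. Slc7a11, the cystine importer, rose by 1.55 (SE 0.27) and Nqo1 by 0.63 (SE 0.20). Of 11 CAR and PXR targets 1 was higher and 3 lower, with Cyp2b10 at -2.15 (SE 0.43). Among 18 regulators 9 were lower, including the receptor CAR (Nr1i3) with -0.93 (SE 0.27), PXR (Nr1i2) with -0.355 (SE 0.12) and Ppara with -0.61 (SE 0.12), and 1 was higher, the NRF2 gene Nfe2l2, with 0.25 (SE 0.082). Other conjugating enzymes had 2 of 15 higher and 2 lower, and AHR targets 2 of 7 higher and 1 lower. A list of deconjugating enzymes and epoxide hydrolases (Gusb, Arsa, Arsb, Ephx1 and Ephx2) had 1 of 5 called each way. No gene of these 8 lists is a member, and 7 genes stand in more than 1 list.

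Markers of other cells moved with the genotype on LFnC as well. Of 8 bile duct and ductular cell markers 8 were called higher, with a median change of 1.43. Their joint level, the mean of the log2 values after subtracting each gene's mean over all arrays, was 1.00 to 1.67 in LFnC females of LKO and -0.31 to 0.07 in LFnC females of LWT, and 0.85 to 1.40 against -0.67 to -0.22 in males. Of 13 stellate cell and matrix genes 8 were higher. Of 13 macrophage markers 7 were higher and 1 lower. Of 9 hepatocyte markers 1, Hnf4a, was lower, and their joint level stayed between -0.12 and 0.12 on all arrays. They read 12.30 to 14.29, up to near the highest array value of 14.37, so this level does not show that hepatocyte RNA was steady. Of the other lists, T, B and NK cell markers had 2 of 11 higher and 1 lower, liver endothelial markers 1 of 8 lower, pancreatic acinar genes 0 of 8 called, pericentral hepatocyte genes 1 of 9 each way and periportal ones 3 of 7 lower. The part of these cell types in the member changes was not tested.

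On the fat-rich diets no single member passed. On HFnC no member was called by limma, against 0.0203% of all genes (0.0153% higher and 0.00509% lower), and 5 had an unadjusted p under 0.05. Of the 40 members 13 were above 0, with a median change of -0.09 against 0.01 over all genes. The lowest change was that of Sult2a8, at -1.12 (95% interval -2.26 to 0.01). HFnC female LKO mouse 1 read 6.25 for Sult2a8, against 10.65 and 11.79 in its group, and 9.41 for Ugt3a1, against 11.53 and 11.78. For Gstp1 it read 13.60, against 12.74 and 12.41. That array was below both others of its group for 28 of 40 members and above both for 8, and it had a ductular marker level of 1.47, against 0.12 and -0.42. Without HFnC female LKO mouse 3, 1 member was called on HFnC, against 1.52% of all genes. It was Ugt2b1, with -0.69 (SE 0.14, adjusted p = 0.016), and mouse 1 of that group stayed in this fit. The other 11 single omissions called no member on HFnC.

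**Figure D3:**
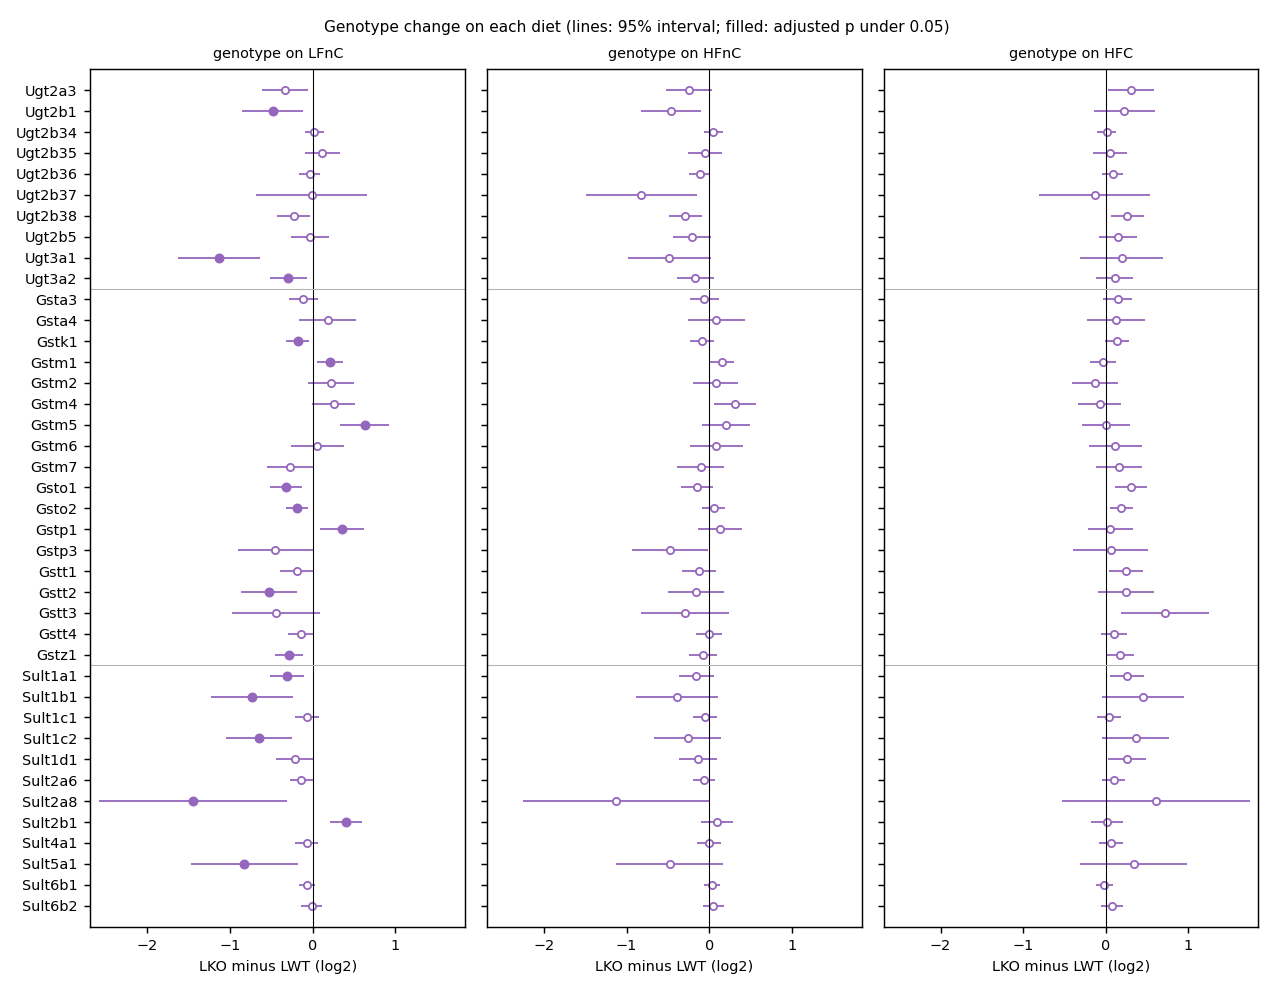
Log2 change, LKO minus LWT, of each member on the 3 diets, with 95% intervals and filled points where the adjusted p was under 0.05. Filled points lie on LFnC, where 17 members were called, and on HFC 35 of 40 points lie above 0 with no call.

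On HFC no member was called by limma either, against 1% of all genes (0.0814% higher and 0.92% lower), and 9 had an unadjusted p under 0.05. Yet 35 of 40 members were above 0, with a median change of 0.13 against 0.02 over all genes. Gstt3, of the theta class, was at 0.72 (SE 0.26, adjusted p = 0.17) and Gsto1 at 0.31 (SE 0.094, adjusted p = 0.10). HFC males of LWT varied widely. For Gstt3 they read 9.27, 9.78 and 10.73, against 10.23, 10.93 and 11.40 in HFC males of LKO. For Sult2a8 they read 9.82, 11.99 and 12.75, against 12.74, 12.80 and 12.62. Mice 1 and 2 of that group had ductular marker levels of 0.96 and 0.25, against -0.80 in mouse 3, and macrophage levels of 0.67 and 0.53, against -0.15. Without both of those mice 31 of 40 members were above 0, with a median of 0.07 against 0.00, and none was called. Without mouse 3 of that group 5 were called, against 9.83% of all genes, all higher: Gstt3 with 0.92, Gsto1 with 0.37, Ugt2b38 with 0.34, Sult1a1 with 0.335 and Gstt1 with 0.33. Mice 1 and 2 stayed in that fit, and the other 11 single omissions called no member on HFC.

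The genotype change thus differed between chow and the cholesterol diet for many members. In the test of that difference, HFC minus LFnC, 20 members were called, 18 positive and 2 negative, against 31.3% of all genes (16.7% positive and 14.6% negative). The difference is built from the LFnC and the HFC change, so it is no separate measurement of either. Ugt3a1 had -1.13 on LFnC and 0.195 on HFC, a difference of 1.33 (SE 0.35, adjusted p = 0.0054). Sult1b1 had -0.73 and 0.45, a difference of 1.18 (SE 0.34, adjusted p = 0.011). Sult1c2 had -0.65 and 0.36, a difference of 1.01 (SE 0.28, adjusted p = 0.0079), and Gsto1 had -0.32 and 0.31, a difference of 0.63 (SE 0.13, adjusted p = 0.00086). The 13 members called lower on LFnC ran from 0.11 to 0.61 on HFC, and the 4 called higher on LFnC from -0.03 to 0.06. On HFnC the same 13 ran from -1.12 to 0.06 (median -0.17) and the same 4 from 0.10 to 0.20.

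The remaining positive differences called were Sult2a8 with 2.06, Sult5a1 and Gstt3 with 1.16 each, Gstt2 with 0.77, Ugt2b1 with 0.71, Ugt2a3 with 0.64, Sult1a1 with 0.57, Ugt2b38 with 0.49, Sult1d1 with 0.48, Gstz1 with 0.46, Gstt1 with 0.435, Ugt3a2 with 0.40, Gsto2 with 0.38 and Gstk1 with 0.315. Gstm5, at 0.63 on LFnC and 0.00 on HFC, had -0.63 (SE 0.20, adjusted p = 0.020), and Sult2b1 had -0.38 (SE 0.13, adjusted p = 0.031). All 20 had the same sign in each batch, which again reads the mice that gave the calls. Omissions of single mice were followed gene by gene only for the largest changes in each direction. Among those, they ended the call of Sult2a8 in 17 of 24 cases, of Sult5a1 in 15, of Ugt2b1 in 7 and of Sult2b1 in 6. For Sult1a1, Ugt2b38, Sult1d1, Gstz1, Gstt1, Ugt3a2, Gsto2 and Gstk1 the hold of the call was not read in this way. Ugt3a2 had an adjusted p of 0.05 after rounding in the limma fit, so its call lay at the threshold. Without HFC male LWT mice 1 and 2 the count fell to 5, namely Ugt3a1, Gsto1, Gsto2, Gstz1 and Sult1a1, and without mouse 1 alone it was 13. No share of all genes is given for either fit, so a general loss of calls cannot be told apart from one in the members. The ductular markers also differed, with 8 of 8 called the other way and a median difference of -1.75. Their part was not tested.

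Within a genotype, HFnC against LFnC (called fat below, though the feeds differed in supplier) and HFC against HFnC (cholesterol) called few members. In LWT, HFnC against LFnC called none in the limma fit, against 0.188% of all genes, with an unadjusted p under 0.05 for 4. Ugt2b37 was at 0.92 (95% interval 0.25 to 1.59, adjusted p = 0.21), and HFnC male LWT mouse 2 read 10.91 for it, against 8.57 and 9.03 in its group. In LKO, HFnC against LFnC called 1 member, against 5.04% of all genes (1.8% higher and 3.24% lower): Sult2b1 was lower by -0.36 (SE 0.095, adjusted p = 0.029).

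That count in LKO changed with the array that stands apart. Without HFnC female LKO mouse 1, 11 members were called, against 13.5% of all genes. Ugt3a1 then rose by 0.86 (SE 0.15, adjusted p = 0.00043), Sult2a8 by 1.14 (SE 0.36), Gstz1 by 0.295 (SE 0.057) and Ugt3a2 by 0.22 (SE 0.070), while Gsta4 fell, with a log2 change of -0.70 (SE 0.155), as did Gstm5 with -0.49 and Gstp1 with -0.36. Gsta4, which detoxifies lipid peroxidation products, read 12.01, 11.95 and 12.11 in LFnC females of LKO and 10.80 and 11.29 in the other HFnC females of LKO, against 12.04 in the array left out. With mouse 2 of HFnC male LKO left out, 2 members were called. None was called without HFnC female LKO mouse 2 or 3, or LFnC female LKO mouse 1 or 3, or LFnC male LKO mouse 2 or 3. The difference in this change of feed between genotypes called no member or any other gene in limma (0% of all genes), with an unadjusted p under 0.05 for 3 members. Without HFnC female LKO mouse 1 it called 2, against 4.1% of all genes: Ugt3a1 with 1.025 (SE 0.21) and Gstz1 with 0.33 (SE 0.078).

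Cholesterol, HFC against HFnC, called 1 member in LWT, against 4.67% of all genes (3.5% higher and 1.16% lower). Sult1a1 read 11.84, 11.96 and 11.83 in HFnC females and 11.82, 11.26 and 11.72 in HFC females of LWT, and 11.44, 11.29 and 11.47 against 10.37, 10.85 and 11.06 in males. The male groups did not overlap, and the change was -0.45 over both sexes (SE 0.10, adjusted p = 0.0075). Without HFC male LWT mice 1 and 2 it was -0.30 and not called. Without HFC male LWT mouse 3, 5 members were called, against 11.2% of all genes, and without HFnC male LWT mouse 2, 2. In LKO cholesterol called no member by limma, against 1.01% of all genes, with an unadjusted p under 0.05 for 13. Gsto1 was at 0.35 (SE 0.094, adjusted p = 0.062) and Ugt2b1 at 0.60 (SE 0.18, adjusted p = 0.099). Without HFnC female LKO mouse 3, 8 members were called, against 3.4% of all genes, with Ugt2b1 at 0.825 (SE 0.14, adjusted p = 0.00096), and without HFnC male LKO mouse 2, 2. The other 10 single omissions called none in LKO.

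The cholesterol effect differed between genotypes for 2 members, both positive, against 5.78% of all genes (1.2% positive and 4.58% negative). Gsto1 had -0.105 in LWT and 0.35 in LKO, a difference of 0.46 (SE 0.13, adjusted p = 0.038). Ugt2b38 had -0.28 in LWT and 0.27 in LKO, a difference of 0.55 (SE 0.14, adjusted p = 0.018). Neither was called without HFC male LWT mice 1 and 2, with differences of 0.33 and 0.39. Leaving out single mice gave 1 to 9 calls. It was 9 without HFnC female LKO mouse 3, against 10.8% of all genes, and 8 without HFC male LWT mouse 3, against 14%. It was 1 without any of 13 other mice. Gsto1 lost its call in 13 of 24 omissions, while Ugt2b38 kept it in all 24.

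Sex was called for members of all 3 families. In LWT 12 of 40 were called between females and males over the 3 diets, 8 higher and 4 lower in females, against 6.4% of all genes (3.04% higher and 3.37% lower). In LKO 12 were called too, 3 higher and 9 lower, against 5.52% (2.53% and 2.99%). In both genotypes 6 were called, each in the same direction: Gstp1, Ugt2b5 and Ugt2b38 were lower in females, and Sult1a1, Sult1c2 and Sult2a6 higher. No Ugt member was called higher in females in either genotype, and no Sult member lower in LWT.

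Gstp1 had the largest sex difference in LWT. It read 12.31 to 13.01 in the 9 LWT females (median 12.58) and 13.61 to 13.99 in the 9 LWT males (median 13.77), with no overlap. The difference, female minus male, was -1.19 (SE 0.11, adjusted p = 6.8e-09), 2.29-fold. In LKO it was -0.71 (SE 0.11, adjusted p = 8.3e-05), and the females ran from 12.41 to 13.60 and met the males. Sult1c2 was higher in females, by 0.94 in LWT (SE 0.16, adjusted p = 0.00032) and 0.64 in LKO (SE 0.16, adjusted p = 0.015). Sult1a1 was higher by 0.54 (SE 0.082, adjusted p = 6.7e-05) and 0.56 (SE 0.082, adjusted p = 5e-05). In LKO its 9 females, at 11.54 to 11.93, lay above all 9 males, at 11.04 to 11.32. Sult2a6 was higher by 0.295 in LWT and 0.225 in LKO but read under 5 in every mouse.

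**Figure D4:**
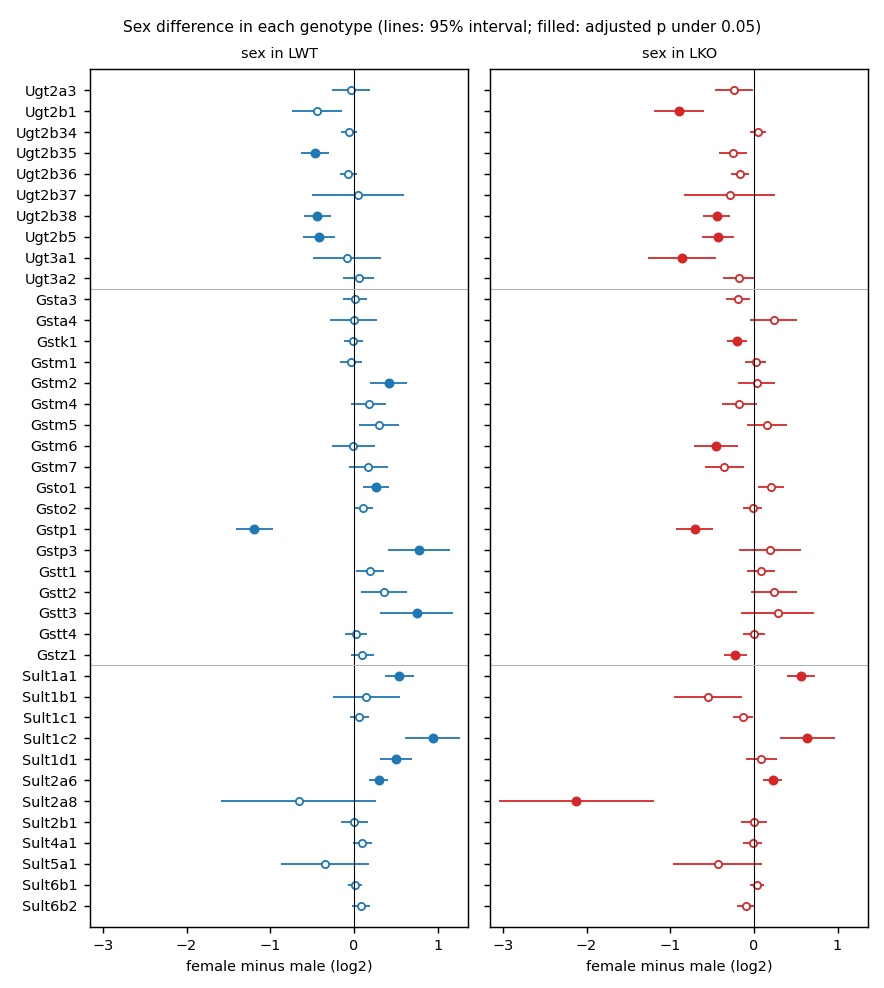
Log2 difference, female minus male, of each member in LWT and in LKO over the 3 diets, with 95% intervals and filled points where the adjusted p was under 0.05. Gstp1 lies far left in both genotypes, Sult1c2 and Sult1a1 right in both, and Sult2a8, Ugt2b1 and Ugt3a1 are filled in LKO alone. No member was called in the test of whether the sex difference differed between genotypes.

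Some members were called in 1 genotype. In LWT these were Gstp3 with 0.78 (SE 0.18), Gstt3 with 0.75 (SE 0.21), Sult1d1 with 0.50 (SE 0.091), Gstm2 with 0.42 (SE 0.11), Gsto1 with 0.26 (SE 0.076) and Ugt2b35 with -0.465 (SE 0.083). Sult1d1, a sulfotransferase for catecholamines, read 12.11 to 12.32 in LWT females and 11.28 to 12.06 in LWT males. Without HFC male LWT mice 1 and 2, Gstt3 and Gsto1 were no longer called, at 0.48 and 0.18. Leaving out single mice ended the call of Gsto1 in 12 of 18 cases and of Gstt3 in 8 of 18. In LKO the calls were Sult2a8 with -2.12 (SE 0.45, adjusted p = 0.0041), Ugt2b1 with -0.90 (SE 0.145), Ugt3a1 with -0.86 (SE 0.20), Gstm6 with -0.45 (SE 0.13), Gstz1 with -0.22 (SE 0.067) and Gstk1 with -0.20 (SE 0.057). Leaving out single mice ended the call of Gstz1 in 15 of 18 cases, with -0.144 without HFnC female LKO mouse 1, of Gstm6 in 10 of 18 and of Gstk1 in 6 of 18. Ugt2b1 read 12.03 to 12.47 in LWT females and 12.57 to 12.97 in LWT males, with no overlap, and its LWT difference of -0.44 (SE 0.145, adjusted p = 0.070) was not called. Sult2a8 ran from 6.25 to 11.89 in LKO females (median 10.46) and from 11.46 to 12.80 in LKO males (median 12.47). In LWT the median was 11.54 in females and 12.55 in males, and the difference of -0.66 (SE 0.45, adjusted p = 0.51) was not called. The lowest LWT male was HFC mouse 1, at 9.82. Without HFnC female LKO mouse 1, at 6.25, the LKO difference was -1.57 and still called.

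Whether these sex differences themselves differed between genotypes was tested as well. No member was called by limma, against 0.0712% of all genes (0.0254% positive and 0.0458% negative), and 15 had an unadjusted p under 0.05. Gstz1 had the smallest p, with a difference of -0.325 (SE 0.095, unadjusted p = 0.0020, adjusted p = 0.23). Gstm7 had -0.525 (SE 0.16, adjusted p = 0.25), Gstp1 0.485 (SE 0.15, adjusted p = 0.26) and Sult2a8 -1.46 (SE 0.64, adjusted p = 0.45). So no member is shown to have another sex difference in LKO than in LWT. Over all diets and both sexes the genotype called no member by limma, against 2.64% of all genes, with an unadjusted p under 0.05 for 8. Ugt3a1 was at -0.47 (SE 0.14, adjusted p = 0.065) and Gstm5 at 0.28 (SE 0.083, adjusted p = 0.063). Without HFnC female LKO mouse 3, 5 were called, against 6.05% of all genes: Gstm5, Gstp1 and Sult2b1 higher and Ugt2b1 and Ugt3a1 lower. Without HFC male LWT mouse 1, 3 were called, and without any 1 of 7 other mice, 1, with no share of all genes given for these fits.

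In LWT, markers of cells other than hepatocytes also differed by sex. Liver endothelial markers were called higher in females in 5 of 8 cases and macrophage markers in 4 of 13. Pancreatic acinar genes were called higher in 3 of 8 cases, and their joint level ran from -1.22 to 2.86 within LFnC females of LWT and from -1.24 to 4.47 within HFnC females of LWT. In LKO 1 of 8 endothelial, 2 of 13 macrophage and 0 of 8 acinar genes were higher. Their part in the member differences was not tested.

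The Ugt2b genes stand in 1 cluster on chromosome 5, in the order Ugt2b34, Ugt2b1, Ugt2b35, Ugt2b36, Ugt2b5, Ugt2b37, Ugt2a3 and Ugt2b38, followed after Ugt2a1 and Ugt2a2 by Sult1b1 and Sult1d1. Promoters at hand were aligned in pairs, with gaps allowed, within the Ugt2, Gstm and Sult1 genes, and identical bases were counted per 250. Those of Ugt2b37 and Ugt2b38 were 89.6% identical, Ugt2b5 and Ugt2b38 84.8%, and Ugt2b5 and Ugt2b37 79.6%. The next pair, Ugt2b36 and Ugt2b5, was 61.2% identical, and the lowest value of any pair was 38.0%. Ugt2b5, Ugt2b37 and Ugt2b38 are shown because 2 of them were called between the sexes in both genotypes and the other in neither. Capitals mark a run of 62 bases that all 3 have in common. The bases come from RefSeq (GRCm38.p6), all on the minus strand, from chr5:87140341-87140590, chr5:87254789-87255038 and chr5:87424204-87424453 in that order.
Ugt2b5: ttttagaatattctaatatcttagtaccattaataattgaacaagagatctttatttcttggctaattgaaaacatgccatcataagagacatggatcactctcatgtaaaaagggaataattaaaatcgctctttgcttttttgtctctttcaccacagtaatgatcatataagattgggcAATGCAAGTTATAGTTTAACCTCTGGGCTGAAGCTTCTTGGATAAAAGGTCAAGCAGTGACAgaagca
Ugt2b37: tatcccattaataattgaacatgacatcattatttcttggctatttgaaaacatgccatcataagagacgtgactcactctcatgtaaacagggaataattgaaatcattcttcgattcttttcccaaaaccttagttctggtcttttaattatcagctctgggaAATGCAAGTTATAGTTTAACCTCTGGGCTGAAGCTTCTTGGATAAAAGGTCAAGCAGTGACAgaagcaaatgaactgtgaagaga
Ugt2b38: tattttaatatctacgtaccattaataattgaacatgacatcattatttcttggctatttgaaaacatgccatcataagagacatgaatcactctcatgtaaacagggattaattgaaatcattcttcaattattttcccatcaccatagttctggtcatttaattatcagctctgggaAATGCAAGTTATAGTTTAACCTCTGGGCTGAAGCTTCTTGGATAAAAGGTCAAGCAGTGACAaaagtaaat
Ugt2b5 was lower in females by -0.42 in LWT (SE 0.092, adjusted p = 0.0046) and -0.43 in LKO (SE 0.092, adjusted p = 0.0047), and Ugt2b38 by -0.44 (SE 0.080, adjusted p = 0.00068) and -0.45 (SE 0.080, adjusted p = 0.00061). Ugt2b37 was at 0.045 in LWT (SE 0.27, adjusted p = 0.97) and -0.29 in LKO (SE 0.27, adjusted p = 0.65). Its 95% interval in LWT, -0.50 to 0.59, takes in differences as large as those of Ugt2b5 and Ugt2b38, and the contrast between the genes was not tested. Probe sets of such close genes may read each other's transcripts.

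**Figure D5:**
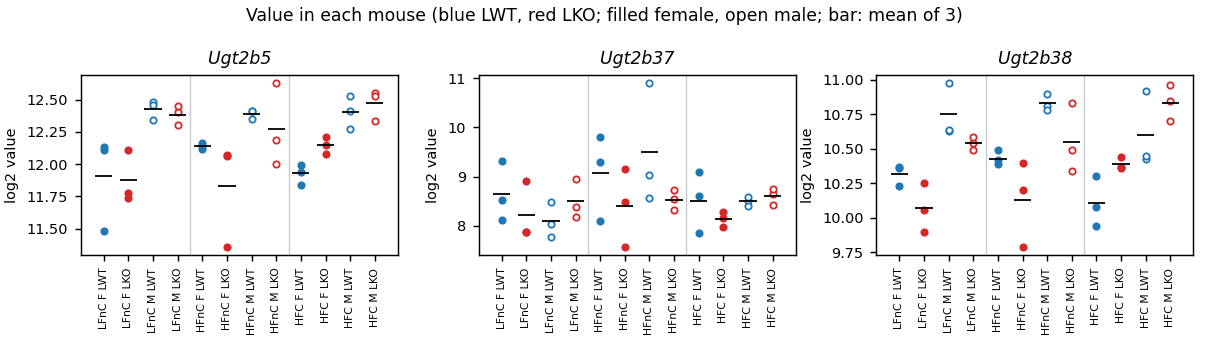
Log2 value of Ugt2b5, Ugt2b37 and Ugt2b38 in each mouse, by diet, sex and genotype, with bars at the mean of 3 mice. For Ugt2b5 the 9 LWT females (11.48 to 12.16) lie below the 9 LWT males (12.27 to 12.53), while LKO females (11.36 to 12.21) and males (12.01 to 12.63) overlap. For Ugt2b37 the LWT females lie at 7.85 to 9.81 and the LWT males at 7.76 to 10.91.

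A match for the STAT5 motif TTCNNNGAA, which growth hormone signalling uses, was searched for in the same 250 bases of the 36 members, on both strands. None held it, against 7.18% of 27025 genes, which says only that these letters are not in these windows. The TATA box letters TATAAA, on either strand, stood in 6 members, Gstm7, Sult1c1, Sult2a6, Sult2a8, Sult6b2 and Ugt3a1, or 16.7%, against 12.97% of genes. The matches began between -231 (Gstm7) and -8 (Ugt3a1) from the start site, and those of Sult2a8 and Sult6b2 read TTTATA, the other strand. Whether any of them works as a TATA box was not tested. The HNF4 motif CAAAGTCCA and the HNF1 motif were in none of the members, against 0.38% and 0.39% of genes.

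Over all 17 comparisons 29 members were called at least once and 11 never: Gsta3, Gsta4, Gstm4, Gstt4, Sult1c1, Sult4a1, Sult6b1, Sult6b2, Ugt2b34, Ugt2b36 and Ugt2b37. Of these Gstt4, Sult1c1, Sult4a1, Sult6b1 and Sult6b2 were also among the 8 that stayed below the array median. Ugt2b34 and Ugt2b36 differed little between groups, with group means of 12.87 to 13.03 and 12.88 to 13.15. Gsta4 had group means from 11.08 to 12.02, highest in LFnC females of LKO, and Gstm4 from 11.48 to 12.31, highest in LFnC males of LKO. Sult4a1, Sult6b1 and Sult6b2 lay at 5.97 to 6.32, 4.25 to 4.35 and 4.95 to 5.38.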

How the data were processed

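Liver RNA of 36 mice was measured on Affymetrix Mouse Gene 1.0 ST arrays. The authors deposited log2 expression values per array row, normalised with RMA per the submitters' processing notes. Neither the RMA version nor the rule behind empty rows was given there or in the labels. RMA fits all arrays together and compresses small values, so folds of dim genes are understated. Of 35556 rows, 9856 were empty on every array. Of the rest, 20781 carried 1 symbol in the platform annotation, 235 several and 4684 none. Rows with 1 symbol gave 19664 genes, by the row with the highest mean, and 19587 matched RefSeq by gene number.

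One limma model (R 4.3.3, limma 3.58.1) with a mean for each of 12 groups gave 17 contrasts with 24 residual degrees of freedom. Adjusted p-values are Benjamini-Hochberg over all 19664 genes, called under 0.05, and intervals are 95%. The labels call the mice biological replicates. The model was tested on simulated data. Replicate numbers are also the batch labels. Same-batch samples of different groups had a mean correlation of deviations of 0.023 over 198 pairs (-0.419 to 0.624), against -0.011 over 396 pairs from different batches. The batch was kept as a block in an alternative. Other alternatives removed genes never above the array median on 3 arrays, centred each array, used trend and robust eBayes, averaged the rows of a gene, and left out mice singly or HFC male LWT mice 1 and 2 together. The members, the lists and these choices were set with earlier results of these data known. In each comparison up to 10 called members in each direction were named by absolute change, and others with values only. Values per mouse were kept for members called in at least 2 comparisons and for the largest changes. Of the members, 36 had a RefSeq promoter (GRCm38.p6).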

Additional observations from a re-analysis of the deposited data

Results flagged for a closer look

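The genotype change differed between diets for 22 results, each from a test of the difference itself with its adjusted p under 0.05 in limma. For HFC against LFnC the differences were 2.06 for Sult2a8, 1.33 for Ugt3a1, 1.18 for Sult1b1, 1.16 for Sult5a1, 1.16 for Gstt3, 1.01 for Sult1c2, 0.77 for Gstt2, 0.71 for Ugt2b1, 0.64 for Ugt2a3, 0.63 for Gsto1, 0.57 for Sult1a1, 0.49 for Ugt2b38, 0.48 for Sult1d1, 0.46 for Gstz1, 0.435 for Gstt1, 0.40 for Ugt3a2, 0.38 for Gsto2, 0.315 for Gstk1, -0.38 for Sult2b1 and -0.63 for Gstm5. For HFC against HFnC they were 0.55 for Ugt2b38 and 0.46 for Gsto1. HFC male LWT mice 1 and 2, with high ductular and macrophage marker levels, enter all 22. Without both, Ugt3a1, Gsto1, Gsto2, Gstz1 and Sult1a1 were still called for HFC against LFnC, and neither of the other 2 results was.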

How the results depend on the processing

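Leaving out 1 mouse gave 0 to 5 calls for genotype over all diets, 9 to 15 on LFnC, 0 to 1 on HFnC, 0 to 5 on HFC, 3 to 6 in LFnC females and 1 to 2 in LFnC males. It gave 10 to 14 for sex in LWT, 9 to 16 for sex in LKO, 0 to 0 for fat in LWT, 0 to 11 for fat in LKO, 1 to 5 for cholesterol in LWT and 0 to 8 in LKO. For the differences it gave 0 to 0 for genotype by sex, over all diets and on LFnC, 0 to 2 by fat, 1 to 9 by cholesterol and 13 to 22 for HFC against LFnC. With the batch as a replicate block, cholesterol in LWT had 2 calls, against 1, and all 64 named calls held, while LFnC females had 10 and sex in LKO 14 calls. Without dim genes, genotype over all diets had 2 calls, LFnC males 1 and cholesterol in LKO 1. Without HFC male LWT mice 1 and 2 the counts were 4 for genotype over all diets, 0 for cholesterol in LWT, 0 by cholesterol and 5 for HFC against LFnC, and 12 of 27 named calls held. Centring each array ended 4 of 64 named calls (Ugt3a2 and Gstk1 in LFnC females, Gsto1 for sex in LWT and Gstz1 for sex in LKO), and trend with robust eBayes ended 4 (Sult2a8 and Sult5a1, on LFnC and for HFC against LFnC), and no setting reversed a named change. Centring turned members above 0 for fat in LWT from 11 to 20. The cause of these changes was not tested. Shares of all genes are given only for omissions of HFnC female LKO mouse 1 or 3 and of HFC male LWT mouse 3. Other counts cannot be set against a general gain or loss of calls. Signal limits the 8 members below the array median, and 3 mice a group limit each sex read alone.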

Other observations

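One row shared by Sult2a1 and Sult2a2, sulfotransferases for steroids and bile acids, had a sex difference larger than that of any single-gene member. Its values belong to both genes together, and it was tested with 19667 genes and rows. On LFnC its means were 11.82 in LWT females (SD 0.16, n = 3) and 5.68 in LWT males. In LKO they were 10.93 in females (SD 0.29, n = 3) and 5.76 in males. Female minus male was 5.72 in LWT (SE 0.17, adjusted p = 1.3e-20, limma) and 5.35 in LKO (SE 0.17, adjusted p = 8.1e-20). In LFnC females the row was lower in LKO by -0.89 (SE 0.29, adjusted p = 0.043), and in LFnC males the change was 0.09 (SE 0.29). The difference between the sexes on LFnC, -0.98, did not pass (SE 0.415, adjusted p = 0.48). In LKO the row was higher on HFC than on HFnC by 0.82 (SE 0.21, adjusted p = 0.047, limma). Its LKO means on HFnC and HFC were 10.30 and 11.70 in females, and 5.44 and 5.69 in males.

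The row shared by 8 genes of the Ugt1a locus, which holds the bilirubin enzyme Ugt1a1, had group means between 11.96 and 12.40. It was higher in females by 0.27 in LWT (SE 0.073, adjusted p = 0.023, limma), and its genotype change on LFnC was -0.09 (SE 0.090, adjusted p = 0.45). The row of Ugt2a1 and Ugt2a2 was dim and lower in LKO on LFnC by -0.205 (SE 0.060, adjusted p = 0.012). Its genotype change on HFC minus that on LFnC was 0.235 (SE 0.085, adjusted p = 0.036, limma).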
